A study of Mus musculus with 40 samples.

Results

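The diet response of INDY mice was examined in the cerebellum, where 6 libraries from mice on a ketogenic diet (INDY KD) were set against 6 libraries from mice on a standard diet (INDY SD). Library titles gave the genotype and diet of these 12 libraries, which were among 40 in the series. All 40 were made from cerebellum of male C57BL6 mice, as total RNA depleted of ribosomal RNA, and the other 28 came from WT (8), CSB (11) and DKO (9) mice on the same diets. The labels give neither the alleles, the substrain, the age of the mice, nor the composition or length of the diets. They do not say whether each library came from its own animal, so p-values measure the spread between libraries.

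INDY stands for the gene Slc13a5, whose product carries citrate together with sodium into cells where it serves lipid synthesis and energy metabolism. A ketogenic diet is rich in fat and poor in carbohydrate, and the liver then releases the ketone bodies beta-hydroxybutyrate and acetoacetate. Brain cells take these up through monocarboxylate transporters and turn them into acetyl-CoA in mitochondria, where Bdh1, Oxct1 and Acat1 act in turn. In liver, fatty acids from such a diet also raise targets of PPAR-alpha, such as Pdk4. The comparison asks how RNA levels in the cerebellum of INDY mice differ between the diets.

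Values are estimated read counts per gene, normalised by the authors between libraries. They are neither raw counts nor levels per gene length, so levels are compared between libraries and not between genes. Slc13a5 was listed at 0 in 5 of 6 INDY KD libraries, at 0.824 in KD library 15, and at 0 in all 6 INDY SD libraries. It ran from 82.1 to 161 in the 19 WT and CSB libraries. Ercc6, which encodes the CSB protein, was at a lowest, median and highest value of 718, 946 and 1070 in INDY KD and of 735, 887 and 1025 in INDY SD. Normalised values summed to between 24956345 and 30784471 in INDY KD and between 25128056 and 29802355 in INDY SD. These sums are not depths, and the depth is unknown. The mitochondrial share of the sum was 6.43% to 10.5% in INDY KD and 7.85% to 11.5% in INDY SD.

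Some INDY libraries stood apart in markers of other tissues and regions, as the plot of marker lists by library shows. The level of a list is the mean log2(value + 1) of its genes. Granule and Purkinje cell markers, which define the cerebellum, were measured above 0 in every INDY library, at levels of 10.4 to 12.1 in INDY KD and 10.8 to 11.9 in INDY SD for the granule cell list. The list of 18 forebrain markers stood above 6.5 in 3 KD libraries, at 6.54 in library 15, 8.69 in 21 and 8.55 in 22. It also did so in 3 SD libraries, at 8.11 in library 9, 6.86 in 11 and 8.10 in 14. Its extremes were 5.96 and 8.69 in INDY KD, and 6.11 and 8.11 in INDY SD. The forebrain factor gene Emx1 was listed at 0 in KD libraries 20 and 46 and in SD library 10. The list of midbrain, brainstem and spinal cord markers was at 3.22 in KD library 20, with 4 of its 23 genes listed at 0, against 6.23 to 7.61 in the other KD libraries and 6.02 to 7.58 in INDY SD. The list of 20 liver markers ran from 3.01 to 9.17 in INDY KD, highest in KD library 22, and from 3.92 to 9.62 in INDY SD, highest in SD library 10. In KD library 46, 9 of the liver genes were listed at 0, and in KD library 22 none was. In these bulk samples, fewer cells of a type and less RNA per cell cannot be told apart. With forebrain and liver levels as covariates, 0 genes had a limma adjusted p under 0.05 between INDY KD and INDY SD. In that fit 1174 genes had an unadjusted p under 0.05. The part that the other markers play in the results was not tested, and the counts without the libraries concerned are given below.

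**Figure D1:**
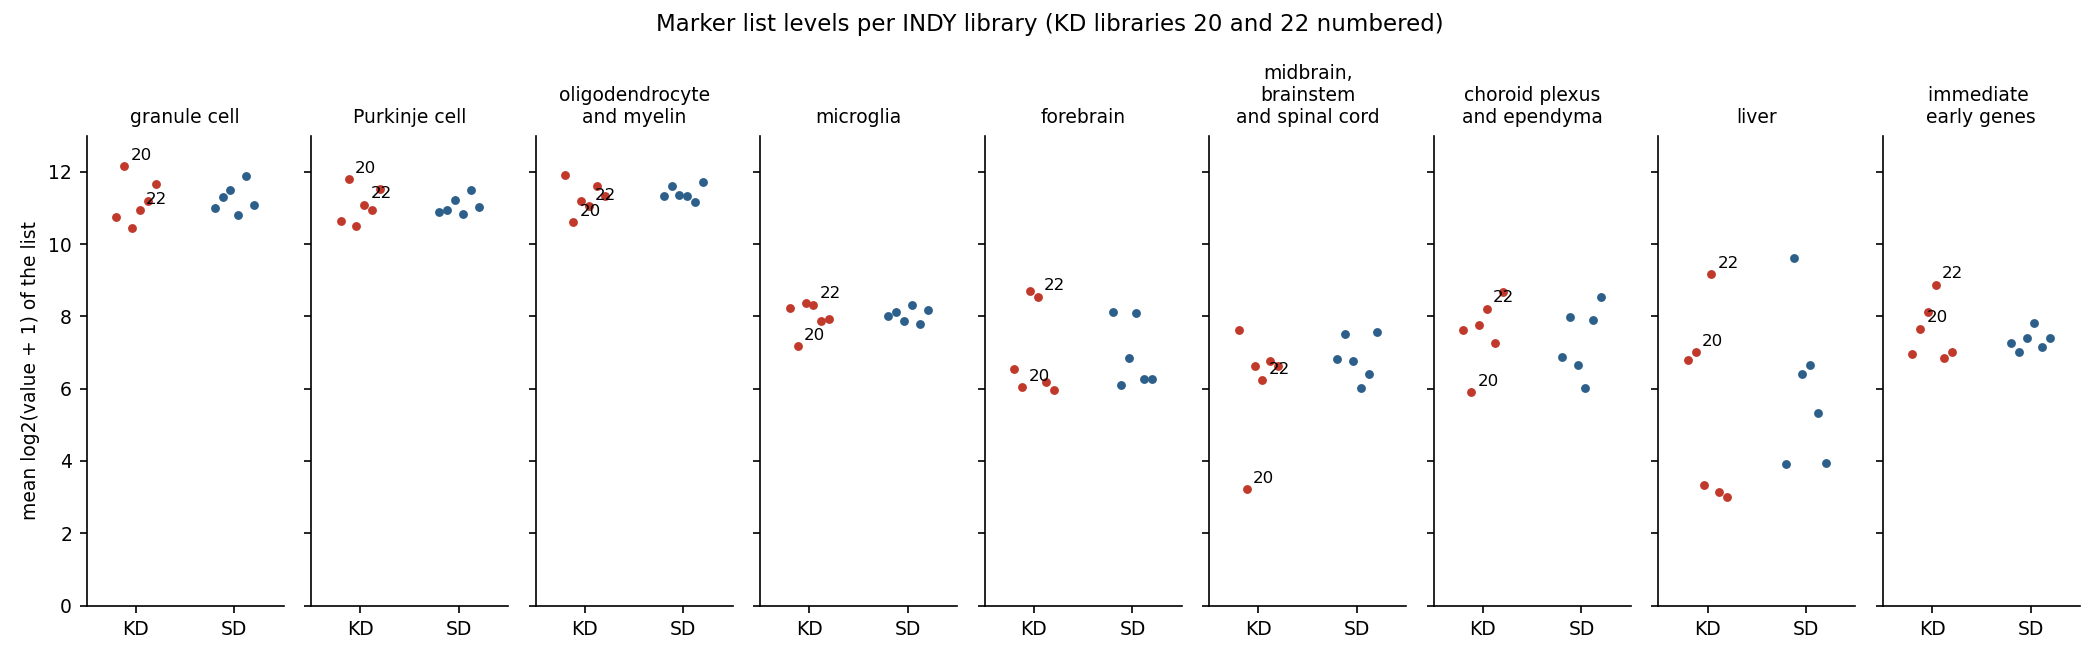
Mean log2(value + 1) of 9 gene lists in each INDY library (points), KD in red at left and SD in blue at right in each panel, with KD libraries 20 and 22 numbered. KD library 20 lies at 3.22 in the midbrain, brainstem and spinal cord list, KD library 22 at 8.88 in immediate early genes, and the liver list spans 3.01 to 9.62 over both groups.

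No gene passed the test between INDY KD and INDY SD. Of 21367 genes tested with limma, 0 (0%) had a Benjamini-Hochberg adjusted p under 0.05, and the smallest adjusted p was 0.253, for Zbtb34. An unadjusted p under 0.05 was found for 989 genes (4.63%), of which 551 (2.58%) were above 0 in log2 difference and 438 (2.05%) were below it. All 6 KD libraries lay outside the range of the 6 SD libraries in 44 genes (0.206%), above it in 25 (0.117%) and below it in 19 (0.0889%). The log2 difference was below 0 in 10693 genes (50.0%), with a median of -0.0002 over all genes. The precision of the comparison can be read from the intervals. The median 95% interval reached 0.37 on the log2 scale to each side, which is 1.29-fold. The whole interval lay within a 1.5-fold difference either way for 12143 genes (56.8%) and within a 2-fold difference for 17476 genes (81.8%). For the remaining genes, a difference of more than 2-fold lies within the interval.

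The count depended on 1 library. Without SD library 32, which had the highest SD value of Zbtb34, the count was 1, and that gene was Zbtb34, with a log2 difference of 0.93 and a limma adjusted p of 0.0227. It was 0 without each of the other 11 INDY libraries. An unadjusted p under 0.05 was found for 766 genes without KD library 20, 1889 without KD library 22 and 748 without SD library 10. The limma adjusted p of Zbtb34 ran from 0.0227 to 0.995 over single INDY libraries left out, highest without SD library 33. In a fit of only the 12 INDY libraries it was 0.9995. A further fit left out all 15 libraries of the series with forebrain levels above 6.5, 6 of them INDY. In INDY, 3 KD and 3 SD libraries remained, and the shared spread also came from fewer libraries of other groups. The count was then 0 by limma, with 2785 genes at an unadjusted p under 0.05. Sizes also depended on single libraries. The medians of all 36 gene lists described below moved by over 1.5 times or changed in sign without 1 of the 12 INDY libraries, 20 of them in sign. The same held for 25 of 82 genes chosen for description that had a log2 difference of 0.1 or more in size.

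Ketone body genes were close to 0 in log2 difference as a list. Of 16 listed genes 15 were tested, and Ffar3, a receptor for short-chain fatty acids and ketone bodies, was listed at 0 in all 12 libraries. None of the 15 passed the test. The median log2 difference was -0.02, 8 genes were below 0, and 10 had an interval within a 1.5-fold difference. Among the transporters, Slc16a1 (MCT1), which carries ketone bodies and lactate across the blood-brain barrier, was at 1680, 1962 and 2404 (lowest, median, highest) in INDY KD and at 1777, 1978 and 2416 in INDY SD. Its 6 KD values lay among the SD values and just below them, and the log2 difference was -0.04, with a 95% interval of -0.22 to 0.14. Slc16a7 (MCT2), a neuronal monocarboxylate transporter, was at 760, 995 and 1367 in INDY KD and at 654, 928 and 977 in INDY SD, a log2 difference of 0.24 (-0.04 to 0.52) that was 0.15 without KD library 21. The glycolytic transporter Slc16a3 (MCT4) had medians of 28.4 in INDY KD and 25.6 in INDY SD. Bsg (basigin), the chaperone of MCT1, had a log2 difference of -0.08 (-0.25 to 0.09).

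The enzymes of ketone body use described here had log2 differences from -0.30 to 0.16. Bdh1, the mitochondrial beta-hydroxybutyrate dehydrogenase (chromosome 16, 31422280 to 31458901), was at 665, 767 and 968 in INDY KD and at 824, 943 and 1049 in INDY SD. In 4 of 6 KD libraries it lay below every SD library. The log2 difference was -0.28 (-0.49 to -0.07), with an unadjusted p of 0.0115 and a limma adjusted p of 0.981. Oxct1, which transfers coenzyme A to acetoacetate and is the step that liver lacks, was at 5359, 7058 and 7719 in INDY KD and at 6438, 7083 and 7810 in INDY SD. The groups overlapped, and the log2 difference was -0.07 (-0.24 to 0.10). Acat1, the mitochondrial thiolase, had a log2 difference of -0.05 (-0.20 to 0.11). The cytosolic thiolase Acat2 had one of -0.30 (-0.62 to 0.02), which was -0.13 without KD library 20, the lowest KD library at 526. Aacs, which activates acetoacetate in the cytosol for lipid synthesis, was at 0.07 (-0.18 to 0.31), and the cytosolic dehydrogenase Bdh2 at 0.16 (-0.24 to 0.57), or 0.06 without KD library 15.

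The receptor genes of the list were less precisely measured. Hcar2, the beta-hydroxybutyrate receptor, was listed at medians of 6.06 in INDY KD and 3.97 in INDY SD. All its INDY values lay between 0.98 and 7.15, under the filter value of 10. Hcar2 was therefore tested only through libraries of other genotypes. The log2 difference was 0.76 (0.003 to 1.52), with an unadjusted limma p of 0.0491 and a limma adjusted p of 0.981. The lactate receptor Hcar1 was at medians of 38.3 in INDY KD and 26.3 in INDY SD, and its interval ran from -0.45 to 1.29. Its log2 difference of 0.42 was 0.15 without KD library 22.

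**Figure D2:**
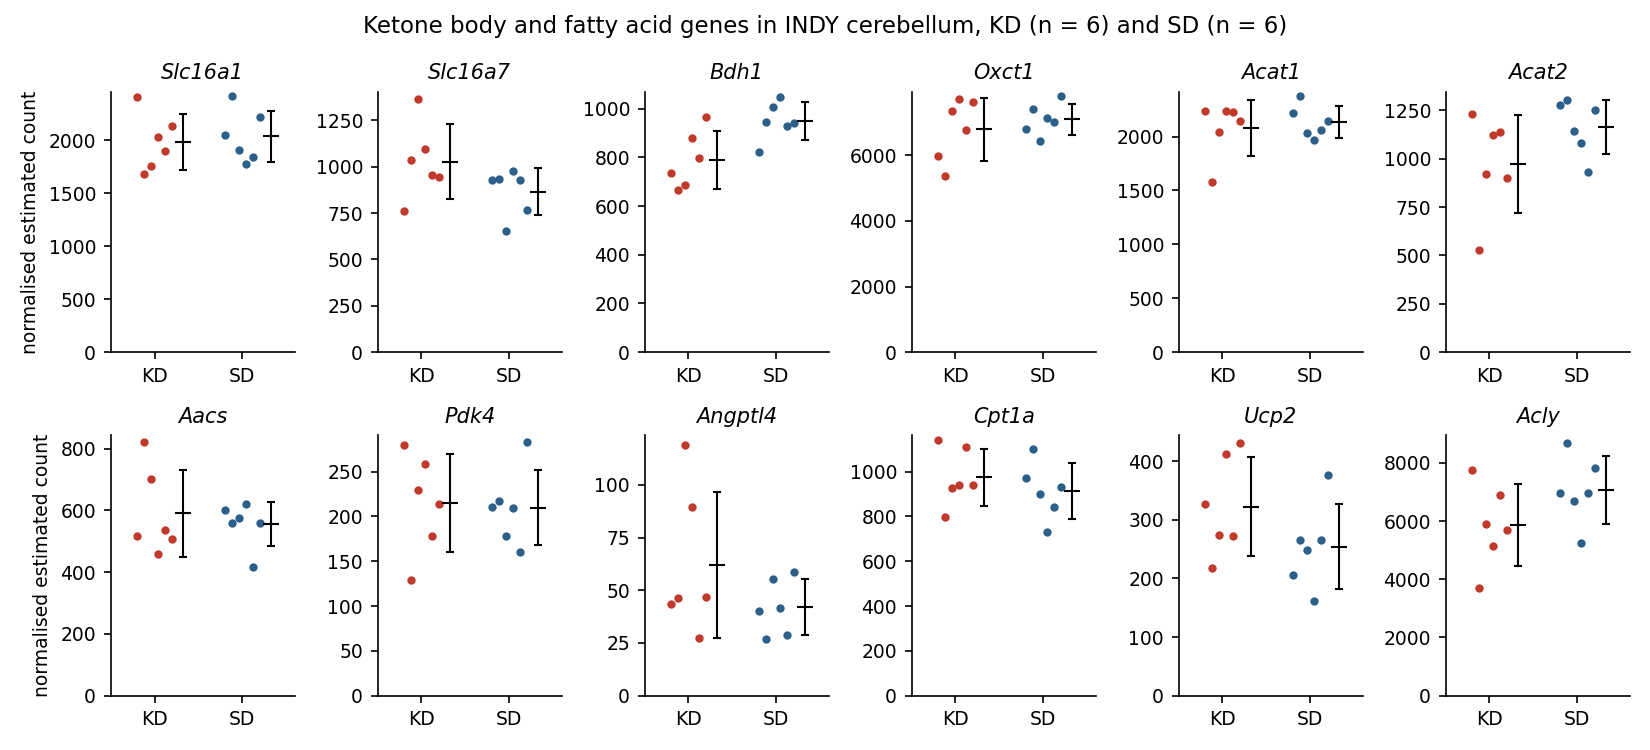
Normalised estimated counts of 12 ketone body and fatty acid genes in each INDY library (points), KD at left in red and SD at right in blue, with the mean and SD of 6 libraries beside them. The groups overlap in every panel, and Bdh1 runs from 665 to 968 in KD and from 824 to 1049 in SD.

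Fatty acid oxidation genes and PPAR targets had a median log2 difference of -0.01 over 46 tested of 48 listed, with 25 below 0. None reached an unadjusted p under 0.05, against 4.63% of all genes. Pdk4, the kinase that shuts off pyruvate dehydrogenase, was at 129, 222 and 280 in INDY KD and at 161, 210 and 283 in INDY SD, a log2 difference of 0.01 (-0.31 to 0.33). Cpt1a, which admits long-chain fatty acids to mitochondria, was at 798, 941 and 1141 in INDY KD and at 730, 916 and 1103 in INDY SD, a log2 difference of 0.10 (-0.09 to 0.28). Both ranges overlapped almost fully. Angptl4, a secreted inhibitor of lipoprotein lipase, reached 119 in INDY KD, against a highest value of 58.9 in INDY SD, and had a log2 difference of 0.44 (-0.09 to 0.97), which was 0.22 without KD library 21. The lipid droplet coat gene Plin2 was at 0.01 (-0.39 to 0.41) and the acyl-CoA thioesterase Acot1 at -0.02 (-0.38 to 0.34). Ucp2, an inner membrane carrier of mitochondria, was at 0.35 (-0.05 to 0.75).

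Genes of fatty acid synthesis and citrate use were of interest because INDY imports citrate. Of 22 tested genes 14 were below 0, the median log2 difference was -0.03, and 20 intervals lay within a 1.5-fold difference. The 22 include Slc13a5 itself, which was at most 0.824 in the INDY libraries and was tested only through WT and CSB libraries. Its log2 difference of 0.14, counted above 0, was 0 without KD library 15. Acly, which splits cytosolic citrate into acetyl-CoA, was at 3712, 5789 and 7765 in INDY KD and at 5234, 6970 and 8689 in INDY SD. The groups overlapped, with a log2 difference of -0.29 (-0.60 to 0.02) that was -0.17 without KD library 20. The mitochondrial citrate carrier Slc25a1 had one of -0.08 (-0.44 to 0.27), and Slc13a3, a related dicarboxylate transporter, one of 0.04 (-0.26 to 0.35). Cholesterol synthesis genes had a median of -0.11, with 22 of 29 below 0. That median was -0.02 without KD library 20. Tm7sf2, a sterol reductase, was the 1 cholesterol gene with an unadjusted p under 0.05 (3.45% of the list, against 4.63% of all genes). It belongs to a group of neighbours on chromosome 19 described below.

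Glucose and energy genes lay slightly below 0 as lists, without a called gene. Glycolysis genes had a median log2 difference of -0.11, with 23 of 28 below 0, against 50.0% of all genes. Of these, 7 had an unadjusted p under 0.05, a p that 2.05% of all genes had with KD below SD. Gapdh, the glycolytic dehydrogenase that has many processed copies in the genome, was at 14421, 20595 and 25164 in INDY KD and at 22399, 24815 and 25967 in INDY SD. Aldoa, an aldolase, had a log2 difference of -0.24 (-0.42 to -0.05). Pfkm, a subunit of phosphofructokinase, did not overlap between the groups, with 6260 to 7158 in INDY KD and 7183 to 8023 in INDY SD, a log2 difference of -0.16 (limma adjusted p = 0.981). The blood-brain barrier glucose transporter Slc2a1 was at -0.02 (-0.21 to 0.18). All 22 genes of the citric acid cycle were below 0, with a median of -0.11 and extremes of -0.19 and -0.01. Citrate synthase (Cs) was at 4345, 5122 and 5739 in INDY KD and at 5445, 5696 and 6056 in INDY SD, a log2 difference of -0.18. Without KD library 20 the medians were -0.07 for glycolysis and -0.06 for the citric acid cycle.

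All 71 nuclear genes of oxidative phosphorylation were below 0, from -0.35 to -0.05, with a median of -0.15. None passed the test, 6 had an unadjusted p under 0.05 (2.05% of all genes did so with KD below SD), and 70 intervals lay within a 1.5-fold difference. Atp5g1, which encodes the c subunit of ATP synthase, was at 2060, 2779 and 3046 in INDY KD and at 2988, 3169 and 3762 in INDY SD, and Cox5b, of cytochrome c oxidase, had a log2 difference of -0.31 (-0.59 to -0.03). The median of this list was -0.08 without KD library 20 and -0.22 without KD library 22, 2 libraries on either side of the group, with list levels of 10.6 and 11.2. The 13 mitochondrially encoded mRNAs had a median of -0.13, which was -0.07 without KD library 20. Cytosolic ribosomal protein genes had one of -0.07, with 68 of 79 below 0, which became -0.18 without KD library 22 and -0.0001 without KD library 20. Members of these lists are expressed together within a library, so their number does not act as replication.

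**Figure D3:**
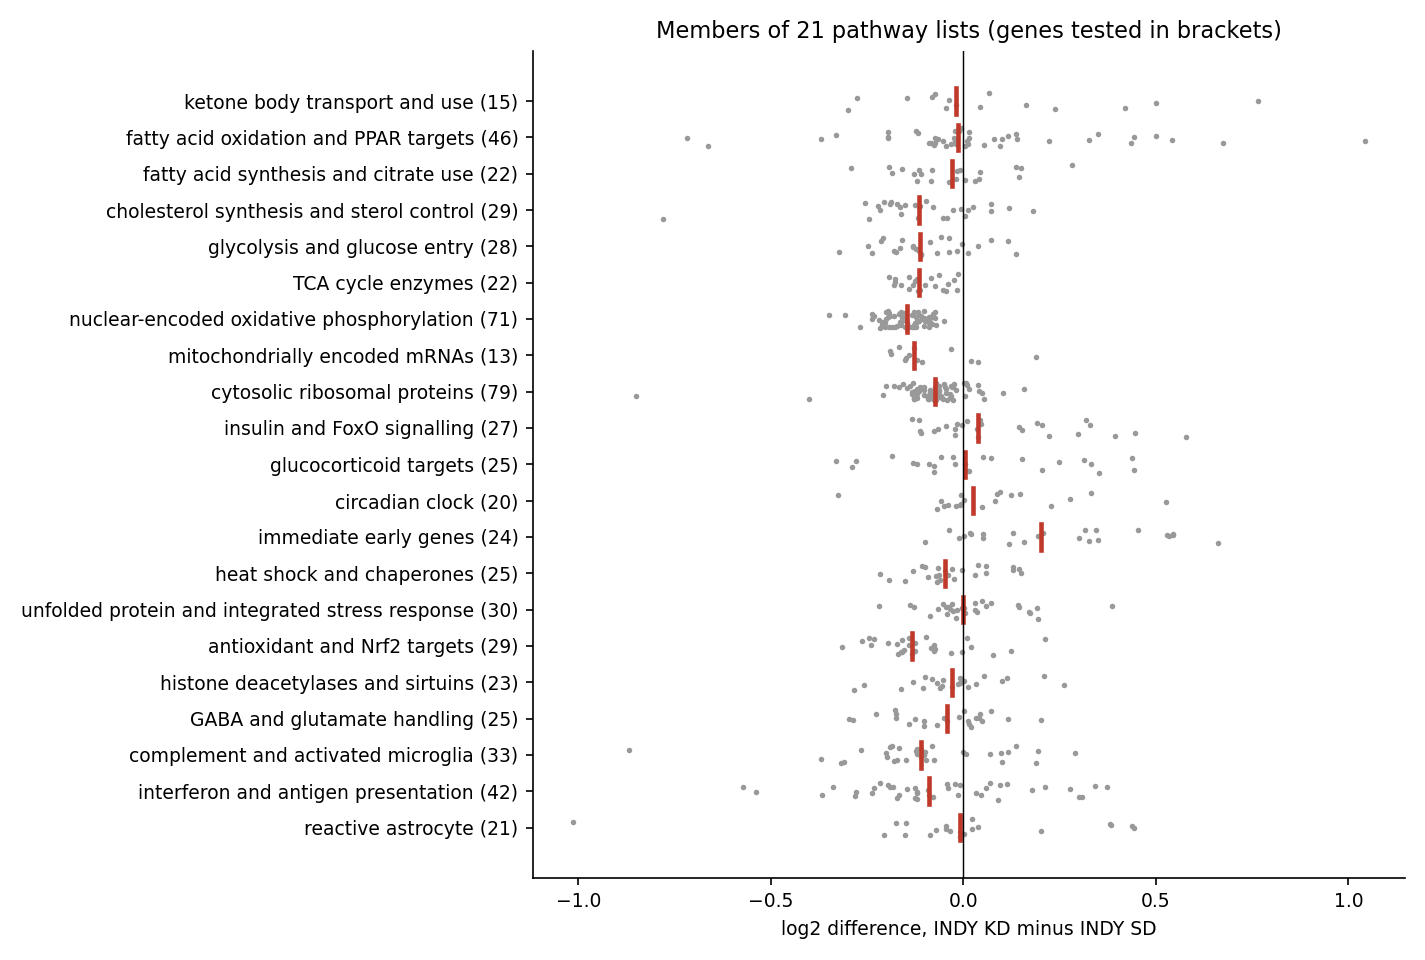
Log2 difference between INDY KD and INDY SD (n = 6 each) of the tested members of 21 pathway lists (grey points, spread vertically for sight), with each list's median as a red bar and the number of tested genes in brackets. The medians run from -0.15 for oxidative phosphorylation to 0.20 for immediate early genes.

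Signalling and stress lists held no gene that passed the test, and none of all 21367 genes did. In the insulin and FoxO list the median was 0.04, and 4 of 27 genes were above 0 with an unadjusted p under 0.05, against 2.58% of all genes. Sesn3, a FoxO target that restrains mTORC1, did not overlap between groups, with 4304 to 5550 in INDY KD and 3352 to 4148 in INDY SD, a log2 difference of 0.32 (0.14 to 0.50) and a limma adjusted p of 0.81. The IGF1 receptor gene Igf1r was at 0.33 (0.12 to 0.53) and the insulin receptor gene Insr at 0.19 (0.06 to 0.32). Glucocorticoid targets had a median of 0.00, with the metallothionein gene Mt1 at -0.33 and the cell cycle inhibitor gene Cdkn1a at 0.35. Clock genes had a median of 0.02, and none of 20 had an unadjusted p under 0.05, against 4.63% of all genes. Per1 was at 373, 530 and 984 in INDY KD and at 329, 479 and 525 in INDY SD, and its log2 difference of 0.33 was 0.17 without KD library 20.

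Immediate early genes, which neurons transcribe within minutes of activity, had the highest median of the pathway lists, 0.20, with 21 of 24 above 0. Egr1, a zinc finger factor of this class, was at 139, 268 and 1042 in INDY KD and at 111, 206 and 254 in INDY SD. The value of 1042 came from KD library 22, and the KD libraries also held values below the SD median. Without KD library 22 the median of the list was -0.04. The levels of the list were 8.88 in that library, 8.11 in KD library 21 and at most 7.83 in INDY SD. Klf4 was the 1 member with an unadjusted p under 0.05 (4.17% of the list, against 4.63% of all genes). Its log2 difference was 0.54 (0.04 to 1.05).

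Heat shock genes had a median of -0.05, and genes of the unfolded protein and integrated stress response one of 0.00 over 30 genes, 25 of them with intervals within a 1.5-fold difference. Antioxidant and Nrf2 targets had a median of -0.13, with 24 of 29 below 0 and 3 of these at an unadjusted p under 0.05, against 2.05% of all genes, among them the sulfiredoxin gene Srxn1 at -0.26. The median was -0.05 without KD library 20. Histone deacetylases and sirtuins were listed because beta-hydroxybutyrate is known to inhibit class I deacetylases. Their median was -0.03, with Hdac4 at 0.21 and Sirt6 at -0.28. GABA and glutamate handling genes had a median of -0.04. The aspartate aminotransferase genes Got1 and Got2, which shuttle reducing equivalents and make glutamate, were at -0.23 and -0.18, the second of them at -0.11 without KD library 20.

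Glial and immune lists likewise held no called gene. Complement and activated microglia genes had a median of -0.11 over 33 genes (-0.01 without KD library 20), and interferon and antigen presentation genes one of -0.09 over 42, which was 0.001 without SD library 10 and -0.16 without KD library 22. Apoe, the main apolipoprotein of astrocytes, was at -0.27 (-0.48 to -0.05). Cst7, a marker of activated microglia, was at medians of 7.92 in INDY KD and 11.9 in INDY SD, a log2 difference of -0.87 (-1.65 to -0.09). It was the lowest of the 33 complement and activated microglia genes, of which 24 were below 0 and 9 above it, up to 0.29. Reactive astrocyte genes had a median of -0.01, with 12 of 21 below 0 and Osmr highest at a log2 difference of 0.44. Lowest of them was the protease inhibitor gene Serpina3n, at 79.8, 325 and 754 in INDY KD and at 306, 531 and 1385 in INDY SD. Its groups overlapped, and the log2 difference was -1.01 (-1.93 to -0.10), with a limma adjusted p of 0.981. Without KD library 20, which held the value of 79.8, the difference was -0.63. Microglia markers had a median of -0.06, which was 0.10 without KD library 20. Of the 22 microglia markers 14 were below 0 and 8 above it, up to 0.24. The lowest was Tmem119, a marker of resident microglia, at -0.28 (-0.63 to 0.07), or -0.12 without KD library 20.

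Among neural cell types the medians were -0.01 for Purkinje cells, -0.13 for granule cells, -0.02 for cerebellar interneurons, -0.07 for astrocytes and Bergmann glia, -0.17 for oligodendrocytes and -0.05 for their precursors. With 1 INDY library left out in turn, the Purkinje cell median ran from -0.14 to 0.11, the granule cell median from -0.25 (without KD library 20) to 0.06 (without KD library 21), and the interneuron median from -0.12 to 0.06. That of astrocytes and Bergmann glia ran from -0.14 to -0.04, that of oligodendrocytes from -0.30 (without KD library 15) to -0.03 (without KD library 20), and that of their precursors from -0.13 to 0.02. Of 20 astrocyte and Bergmann glia markers 13 were below 0. The transcription factor gene Sox9 had the highest log2 difference of that list, 0.43, with an unadjusted limma p of 0.0324. It was at 355, 407 and 434 in INDY KD and at 243, 289 and 386 in INDY SD. Mbp, of the myelin sheath, was at 33178, 47549 and 97678 in INDY KD and at 55490.1, 59709.6 and 79871 in INDY SD, so the KD libraries spread on both sides of the SD libraries. The brainstem list had a median of -0.73, which was -0.06 without KD library 20. The liver list had a median of -0.58, which was 0.10 without SD library 10 and -1.35 without KD library 22. Choroid plexus, mural and meningeal, endothelial, forebrain, blood and muscle lists had medians of 0.18, 0.13, -0.09, 0.02, -0.12 and -0.19. The choroid plexus median was -0.01 without SD library 14, 0.56 without KD library 20 and -0.87 without the 6 INDY libraries of high forebrain level. Over single libraries left out, the mural and meningeal median ran from 0.06 to 0.29, the endothelial one from -0.12 to -0.04, the forebrain one from -0.29 to 0.17, the blood one from -0.33 to 0.03 and the muscle one from -0.38 to -0.04. None of the 15 cell type lists held a called gene.

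Most of the 10 genes with the smallest p in each direction are given here although none passed the test. Zbtb34, which encodes a BTB-domain zinc finger protein (chromosome 2, 33406108 to 33431324), was at 179, 242 and 341 in INDY KD and at 105, 128 and 205 in INDY SD. SD library 32 was the 1 SD library above the lowest KD values. The log2 difference was 0.81 ± 0.16 (SE), with an unadjusted p of 1.18e-05. Drosha, the nuclease that starts microRNA processing, ran from 1649 to 1831 in INDY KD and from 1330 to 1502 in INDY SD, without overlap, a log2 difference of 0.30. Gatad2b, of the NuRD complex, and Ep300, a histone acetyltransferase, did not overlap either, at log2 differences of 0.43 and 0.41. Cdc73, of the PAF1 complex, was at 0.44. Cyyr1, Tmem245, Dnajc13 and Fam78b were between 0.32 and 0.58. Apart from Zbtb34 these genes had a limma adjusted p of 0.81.

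In the other direction, Alg1, a mannosyltransferase of N-glycan assembly (chromosome 16, 5233621 to 5244912), was at 245, 295 and 370 in INDY KD and at 373, 387 and 430 in INDY SD. All KD libraries lay below all SD libraries, with a log2 difference of -0.39 ± 0.08 (SE) and a limma adjusted p of 0.392. Wdr24, a subunit of the GATOR2 complex that acts on mTORC1, ran from 331 to 383 in INDY KD and from 394 to 449 in INDY SD, also without overlap. Fastkd3, an RNA-binding protein of mitochondria, had a log2 difference of -0.54. Nedd8, the ubiquitin-like modifier, was at -0.34, Med10, of the Mediator complex, at -0.37 and Wdr1, which helps to take actin filaments apart, at -0.18. Tmem41a and Spryd4 were at -0.34 and -0.38. Zfpl1, a Golgi protein, was at -0.94 and belongs to the group of neighbours described next.

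In the order of tested genes along chromosomes, the longest run of neighbours with an unadjusted p under 0.05 and the same sign was 8 genes, from Capn1 to Vps51 on chromosome 19, and a run of 4 from Zfpl1 to Arl2 lay close behind it. These genes were chosen after their values were seen, so what follows is a description. On chromosome 19 between 6012620 and 6141548 (GRCm38), 12 genes were tested, and their log2 differences ran from -1.72 to -0.71 with a median of -0.86. They were Gm10814, Syvn1, Mrpl49, Fau, Znhit2, Tm7sf2, Vps51, Gm28374, Zfpl1, Sac3d1, Snx15 and Arl2. Gm10814, the lowest at -1.72, was at values of 11.3 to 18.3 in the KD libraries apart from library 45, at 70.9. Gm28374 was at values from 0 to 12.44 in the INDY libraries, and its 95% interval ran from -2.53 to 0.005. The 33 other tested genes in the plotted window had a median of -0.07 and extremes of -0.38 and 0.32. The nearest of these were Capn1 at -0.38 and Ppp2r5b at -0.08. Gm10814 is annotated as antisense and overlaps Capn1, and the counting strand is not given in the sources used here, so reads of these genes cannot be told apart.

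The genes of the block have varied roles. Mrpl49 encodes a protein of the mitochondrial ribosome, Fau a ribosomal protein joined to a ubiquitin-like part, Syvn1 a ubiquitin ligase of the endoplasmic reticulum, Vps51 a tethering subunit of the GARP complex and Arl2 a small GTPase. Mrpl49 was at 583, 674 and 1143 in INDY KD and at 658, 1338 and 2162 in INDY SD. The KD value of 1143 was from library 45 and the SD value of 658 from library 32. All the other KD libraries were at or below 732, and all the other SD libraries were at or above 1255.

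Across all 40 libraries the mean level of 8 genes of the block (Mrpl49, Fau, Znhit2, Vps51, Zfpl1, Sac3d1, Snx15 and Arl2) lay in separate clusters, with 23 libraries up to 8.90 and 17 from 9.44 upward on the log2 scale. The upper cluster held 1 of 6 INDY KD libraries and 5 of 6 INDY SD libraries. It held 2 of 4 WT KD and 2 of 4 WT SD libraries, none of 5 CSB KD and 6 CSB SD libraries, and 4 of 5 DKO KD and 3 of 4 DKO SD libraries. The median of the upper cluster without its 2 highest libraries was 2.12-fold that of the lower one, and that of the 2 highest, 1 in INDY SD and 1 in WT KD, was 3.29-fold. Both levels occurred on both diets in WT, INDY and DKO mice.

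**Figure D4:**
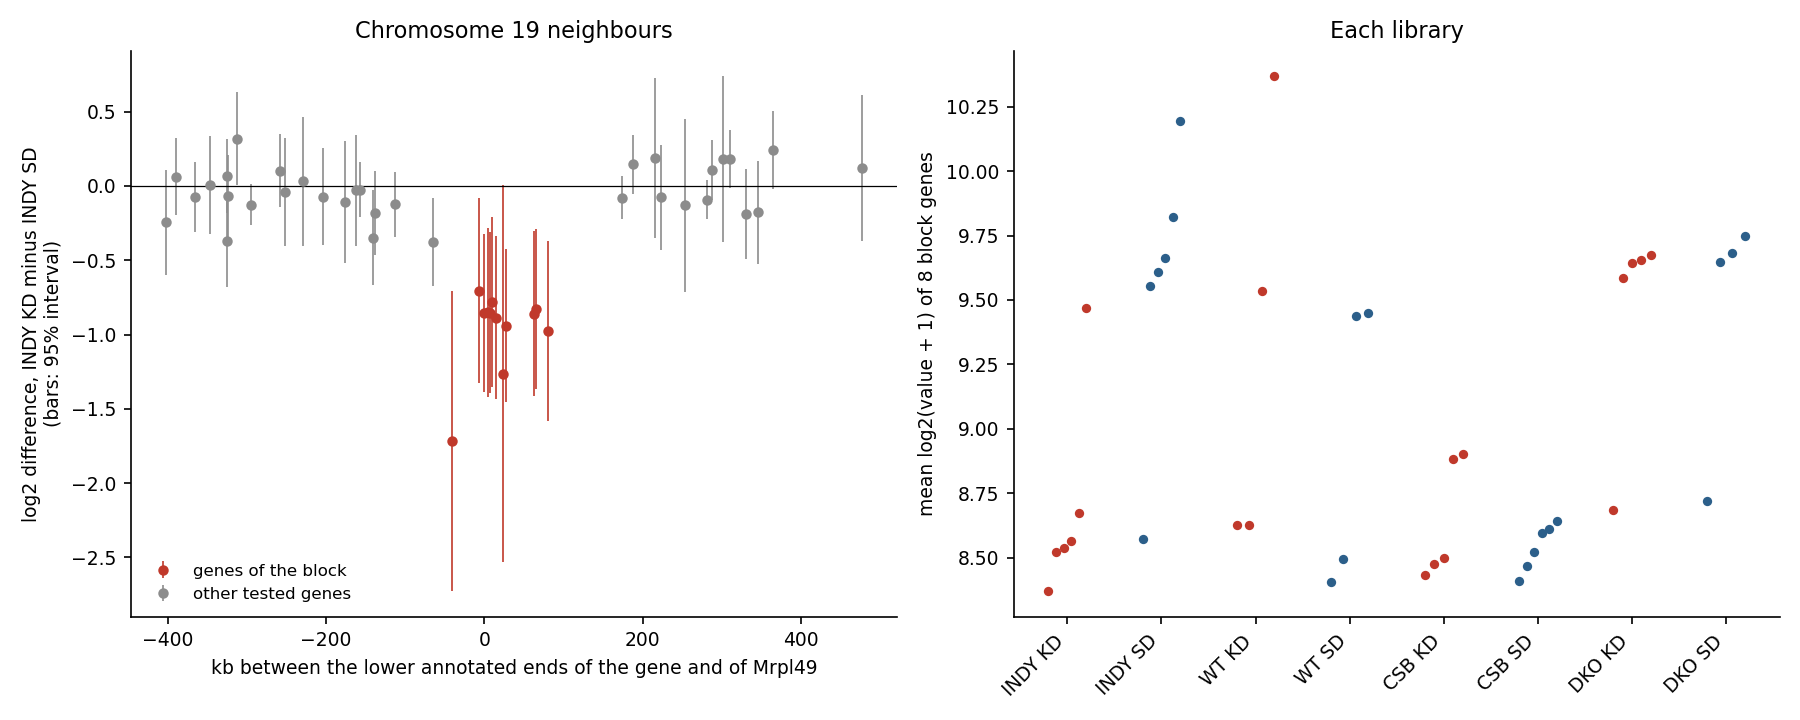
Left, log2 difference between INDY KD and INDY SD with its 95% interval for the tested genes around Mrpl49 on chromosome 19, by distance in kb, with the 12 genes of the block in red. Right, mean log2(value + 1) of 8 block genes in each of 40 libraries by group, KD in red and SD in blue; 1 of 6 INDY KD and 5 of 6 INDY SD libraries lie above the gap between 8.90 and 9.44.

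The diet response of INDY mice was next set against that of the other genotypes, by the difference between the responses in the same fit. These comparisons all share the 12 INDY libraries. Against WT, 3 of 21367 genes (0.014%) passed the test, with 3066 (14.3%) at an unadjusted p under 0.05. Zbtb34 had a log2 KD minus SD value of 0.81 in INDY and -0.57 in WT, a difference of 1.38 ± 0.25 (SE). Heg1, a membrane protein of heart and vessel development, was at 0.40 in INDY and -0.54 in WT, a difference of 0.93 ± 0.17 (SE). Wdr18, a factor of ribosome assembly, was at -0.23 in INDY and 0.48 in WT, a difference of -0.71 ± 0.13 (SE). The limma adjusted p was 0.0429 for each of them. None of the 3 genes passed the KD against SD test in INDY itself, where Heg1 ran from 1024 to 1336 in KD and from 782 to 1035 in SD.

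These 3 calls did not hold throughout. The count was 0 without WT KD library 25, with 2165 genes at an unadjusted p under 0.05, and also 0 without 7 of the 12 INDY libraries in turn. With forebrain and liver levels as covariates it was also 0. Forebrain levels above 6.5 were found in 3 of 4 WT KD libraries and in none of 4 WT SD libraries, and without all libraries above that level 16 genes were called, none of them among the 3, with 1 WT KD library left, whose spread is taken from the other groups. The forebrain list had a median log2 KD minus SD value of 0.02 in INDY and 1.27 in WT. The choroid plexus list was at 0.18 in INDY and -2.001 in WT, and the muscle list at -0.19 in INDY and 1.38 in WT. The liver list was at -0.58 in INDY and 0.78 in WT, and the blood list at -0.12 in INDY and 0.73 in WT. Purkinje cell markers were at -0.01 in INDY and -0.61 in WT, granule cell markers at -0.13 in INDY and -0.54 in WT, and microglia markers at -0.06 in INDY and 0.47 in WT. Apart from the forebrain and liver levels, the part of these lists in the 3 calls was not tested.

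Against the other genotypes no difference in diet response passed the test by limma. The count was 0 (0%) against CSB, with 1122 genes (5.25%) at an unadjusted p under 0.05, and 0 (0%) against DKO, with 1232 (5.77%). It was 0 (0%) against the mean of WT, CSB and DKO, with 1593 (7.46%). The other genotypes themselves gave 0 calls in WT with 2868 genes (13.4%) at an unadjusted p under 0.05, 0 calls in CSB with 732 (3.43%), and 1 call in DKO (0.00468%) with 1732 (8.11%). Across the 21367 genes, which are not independent, the INDY response had a Spearman rho of -0.26 with that of WT, -0.12 with CSB and 0.08 with DKO.

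For the ketone body genes, Bdh1 had KD minus SD values of -0.28 in INDY, 0.03 in WT, 0.14 in CSB and -0.10 in DKO. Oxct1 was at -0.07, -0.14, 0.12 and -0.09, and Pdk4 at 0.01, 0.10, -0.25 and 0.07, in the same order. The limma adjusted p of the difference between INDY and each other genotype was 0.374 or higher for these 3 genes. The median of the oxidative phosphorylation list was -0.15 in INDY, 0.23 in WT, 0.13 in CSB and 0.05 in DKO. No member of the ketone body list was called in the INDY minus WT comparison, where only 3 of 21367 genes (0.014%) were called.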

How the data were processed

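Deposited values are a signal: read counts estimated per gene and scaled between libraries by the authors. Bowtie2, Salmon, DESeq2 and the mm9 build are named per the submitters' processing notes. Versions, order and parameters are not given in the sources used here. Between 12.6% and 64.3% of low values lay within 0.02 of whole reads, so raw counts could not be recovered, depth is unknown and no counting interval was computed. Symbols and positions came from GENCODE M21 on GRCm38, matched by gene ID (54097 of 54331 without version), so they describe the annotation rather than the original mapping.

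Genes with a value of 10 or more in 4 or more libraries were tested on log2(value + 1), a scale that understates changes of low genes. limma 3.58.1 (R 4.3.3, with the package data.table in version 1.17.8) was fitted to all 40 libraries with 8 group means, an intensity trend and robust variances. A gene was called where its two-sided p, adjusted by Benjamini-Hochberg over all genes of a comparison, was under 0.05, and intervals are 95% intervals of the fit. The code was tested on simulated data. Python 3.11.15 and matplotlib 3.10.9 made the figures.

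The comparison and the 36 gene lists (21 of pathways, 15 of cell types) were chosen with earlier results of these data known. Named genes are Slc13a5 and Ercc6, called genes plus those of smallest p up to 10 per direction (mean of at least 20, no clone or model names), and up to 3 per list of smallest p; some of these are not reported here. The remaining ketone body genes, Pdk4, Angptl4, Cpt1a, Plin2, Acot1, Slc25a1, Slc13a3, Slc2a1, the chromosome 19 genes and the comparison without WT KD library 25 were chosen after values were seen. Alternatives were pseudocounts of 0.5 and 5, other filters and scalings, covariates, weights, moderation, subsets of libraries, and each INDY library left out in turn.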

Additional observations from a re-analysis of the deposited data

Results flagged for a closer look

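In groups of 6, single libraries lay far from the rest, by Dixon's ratio, in 26 of 267 groups of values examined. For independent groups of normal spread chance gives about 1 in 20. Many of these groups are genes and lists of the same libraries, and the chromosome 19 genes were chosen after their values were seen. The 26 therefore cannot be read against that rate. KD library 20 was the library farthest from its group in 9 of the 26. It was low in Acat2 at 526, mt-Co1 at 311000, Got1 at 4950, Acat1 at 1580 and Prph at 2.83, and high in Cdkn1a at 213. Its levels of whole lists were 9.16 for cholesterol synthesis, 11.49 for glycolysis and 3.22 for midbrain, brainstem and spinal cord markers. KD library 45 stood above the other KD libraries in genes of the chromosome 19 block, with Gm10814 at 70.9, Mrpl49 at 1140, Vps51 at 1610, Sac3d1 at 246 and Snx15 at 537, and below them in the unfolded protein list at 9.26. SD library 32 stood below the other SD libraries in Gm10814 at 24.4, Sac3d1 at 114 and Arl2 at 848, and in Pmvk at 434 and Aacs at 416. SD library 10 was high in Pfkm at 8020 and the endothelial list at 8.8. SD library 14 was high in Wdr18 at 1270 and in the histone deacetylase list at 9.51. Bdh2 was at 72.3 in SD library 33 and Slc13a5 at 0.824 in KD library 15.

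The diet response differed between INDY and WT by limma at an adjusted p of 0.0429 in Zbtb34, with a difference of 1.38, in Heg1 with 0.93 and in Wdr18 with -0.71. The adjusted p of Zbtb34 ranged from 0.00236 to 0.104 over the alternatives run.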

How the results depend on the processing

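For KD against SD in INDY the count of called genes was 0 under all 14 alternatives other than leaving out single INDY libraries, among them the fit without WT KD library 25, and between 0 and 1 when each of the 12 INDY libraries was left out in turn. The count of INDY minus WT, 3 in the main setting, was 0 without a filter on low values, 0 with forebrain and liver levels as covariates, 0 without trend and robust variances, 0 without WT KD library 25, 5 with array weights, 16 without libraries of high forebrain level and 604 with the first residual component as a covariate. The cause was not tested. It ran from 0 to 9 over the libraries left out in turn. The count of INDY minus DKO was 33 with the first residual component and 0 to 1 over single libraries. That of INDY minus the mean of the other genotypes ran from 0 to 1 over single libraries, 1 without KD library 21 and 1 without SD library 32, Zbtb34 both times. The count of INDY minus CSB was 0 under every alternative run. In INDY minus WT, the difference of Zbtb34 ran from 1.28 to 1.63 over all alternatives run.

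The 20 genes of smallest p in INDY and the 3 genes called in INDY minus WT kept their sign under every alternative run. These genes were chosen by their values in the same libraries, so kept signs are no independent support for them. Without the high-forebrain libraries, which left 3 KD and 3 SD libraries in INDY, medians of lists were as follows: choroid plexus -0.87, blood -0.93, reactive astrocyte -0.48, interferon -0.47 and mitochondrially encoded mRNAs -0.39. Scalings moved the median of all genes by at most 0.02 in size. No paired analysis was possible because the groups share no library numbers. Unknown depth limits the low genes most, such as Hcar2 and Cst7.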
